A study of Citrus sinensis with 6 samples.

Results

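The genes described here are *CsGRAS7* (Cs_ont_2g000710), *CsGRAS9* (Cs_ont_2g017480), *CsGRAS13* (Cs_ont_3g008170) and *CsGRAS16* (Cs_ont_4g016660) of sweet orange (*Citrus sinensis*), 4 members of the PAT1 subfamily of GRAS transcription factors. They were found by their identifiers in the deposited expression table, which lists 29875 genes. They are 4 of the 6 genes that the study's classification places in PAT1, and 4 of its 43 *CsGRAS* genes. They were picked by identifier and subfamily name, with earlier results of these data known. Expression was measured by RNA-seq of leaves of tissue-cultured seedlings, as FPKM, fragments counted relative to transcript length and library size, so that levels of different genes can be set side by side per length. The NaCl leaves came from 3 libraries of seedlings given 2% NaCl for 14 days, and the control leaves from 3 libraries of seedlings with no added NaCl over the same 14 days. No genotype or cultivar is given beyond the species, seedlings were pooled within each replicate, and the controls are described as given sterile water in one source and as grown on normal medium in another. A shared treatment label also names a boron treatment for all 6 libraries, which the titles and treatment tags do not mention.

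GRAS proteins are plant regulators of transcription that share a conserved carboxy-terminal domain and differ in their amino-terminal parts. The PAT1 branch is named after PHYTOCHROME A SIGNAL TRANSDUCTION 1 of *Arabidopsis thaliana*, which acts in far-red light signalling downstream of phytochrome A. In the same *Arabidopsis* branch, SCL21 also acts in phytochrome A signalling and SCL13 mainly in red light signalling through phytochrome B, and rice has PAT1 relatives named for their induction by chitin and gibberellin. Which of the sweet orange genes corresponds to which of these was not examined here. In the deposited annotation, *CsGRAS9* alone of the 4 genes carries light terms, among them red, far-red light phototransduction and photomorphogenesis, with DNA-binding transcription factor activity and a place in nucleus and cytoplasm. *CsGRAS7* carries the terms for nucleus and DNA-binding transcription factor activity, *CsGRAS13* and *CsGRAS16* carry 0 GO identifiers, and no KEGG pathway is given for any of the 4.

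Library totals implied by the FPKM values were 17307079 to 19520980 in NaCl and 14325408 to 17558452 in control. Genes of the leaf's light-harvesting antenna were expressed in both groups: of 17 genes of the photosynthesis antenna pathway, 14 to 15 reached 5 FPKM in NaCl and 12 to 14 in control, and 2 were listed at 0 in every library. Control replicate 2 stood apart from the other controls. On the first principal component, with 53.7% of the variance, the NaCl libraries lay at 25.6, 51.7 and 50.0, against -51.5, -9.50 and -66.3 for control replicates 1, 2 and 3. In 78.1% of the 17285 genes tested, control replicate 2 deviated from the other controls toward the NaCl mean. Both deviations start from the mean of the other controls, so a majority can arise from noise alone, and no baseline was computed. Because control replicate 2 stood apart on the first component, its part in the results below is given as values with and without it.

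All 4 genes were expressed in every leaf library, over a wide range of levels. In NaCl leaves *CsGRAS7* and *CsGRAS16* did not differ beyond their spread, *CsGRAS13* was lower and *CsGRAS9* lowest. In control leaves *CsGRAS16* was above *CsGRAS7* in every library, followed by *CsGRAS13* and *CsGRAS9*. *CsGRAS16* had 0.239 of its mean control level in NaCl leaves, the largest difference of the 6 PAT1 genes, and it lay just outside the threshold of the test across all genes. To be called, a gene had to reach an adjusted p of 0.05 or less (limma on log2(FPKM + 1), Benjamini-Hochberg over 17285 genes) together with a log2 fold change of 1 or more in size. Of the 4 genes 0 were called, by limma and by limma with voom weights on recovered reads, where 2.73% of all tested genes were called (0.978% higher and 1.75% lower in NaCl). At an unadjusted p of 0.05 the test passed 1 of the 4, *CsGRAS16*, and 30.3% of all tested genes. The calls were 169 higher and 303 lower, a split of 85 and 275 after upper-quartile scaling and of 124 and 347 after quantile normalization. The tested genes had a median log2 fold change of 0.18, so values relative to it are also given.

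**Figure D1:**
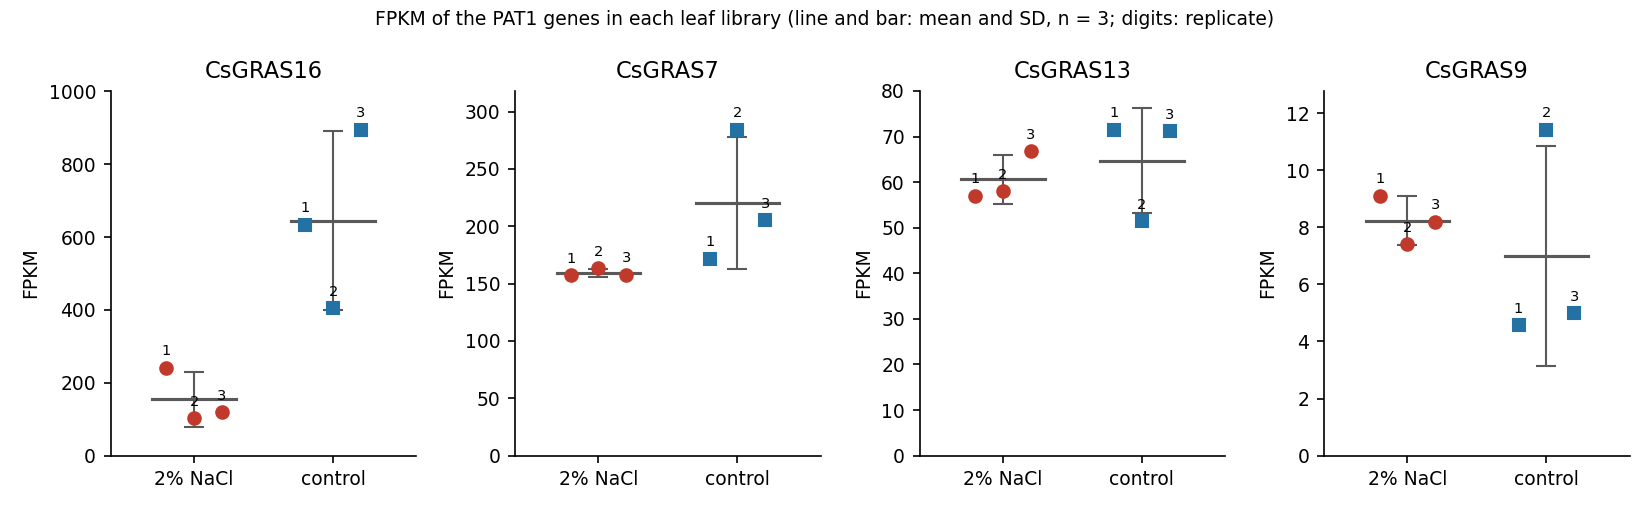
FPKM of *CsGRAS16*, *CsGRAS7*, *CsGRAS13* and *CsGRAS9* in each of the 3 NaCl libraries (red circles) and the 3 control libraries (blue squares), each panel on its own axis from 0, with replicate numbers, the group mean (line) and the SD (bar). The NaCl libraries of *CsGRAS16* lie between 103 and 241 FPKM, below its controls at 404 to 895 FPKM, while the groups of *CsGRAS13* and *CsGRAS9* overlap.

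*CsGRAS16* had the highest level of all 43 *CsGRAS* genes in each control library. It had 241, 103 and 119 FPKM in NaCl replicates 1, 2 and 3, against 634, 404 and 895 FPKM in control replicates 1, 2 and 3. Each NaCl library was below each control library, and the nearest pair were NaCl replicate 1 and control replicate 2. The mean was 154 ± 75.5 FPKM in NaCl leaves and 644 ± 246 FPKM in control leaves (SD, n = 3 each), 4.18 times as high in control. The log2 fold change was -2.09 (standard error 0.42, 95% interval -3.08 to -1.09), or -2.27 relative to the median gene. Its unadjusted p was 0.00173 and its adjusted p 0.0516 by limma. The exact permutation test over the libraries gave p = 0.1 (two-sided), the smallest value that 3 against 3 allow. In leaf tissue, fewer cells of a type that expresses a gene and less RNA per cell cannot be told apart.

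In its rank among all genes of a library, *CsGRAS16* stood at 269, 896 and 713 in NaCl leaves, against 76, 127 and 46 in control leaves, where rank 1 is the highest FPKM. It was thus among the most abundant transcripts of control leaves and stood lower in the order in NaCl leaves. A log2 fold change as low or lower was found for 0.868% of tested genes, which places it at rank 150 from the lowest. Groups that do not overlap, with NaCl the lower, were found for 12.4% of tested genes, and an unadjusted p of at most 0.05 with NaCl the lower for 11.2%.

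The values of *CsGRAS16* also varied widely within each group. Its NaCl libraries had a coefficient of variation of 49.0% and its controls one of 38.1%. On the log2 scale its within-group SD was 0.61, against a median of 0.25 over the 11735 genes with a mean of at least 5 FPKM, and 89.4% of those genes had a smaller one. Counting error was far smaller, since the 6 values rested on 5059 to 11560 reads in NaCl and 16687 to 35541 reads in control.

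The call of *CsGRAS16* turned on single libraries and on the number of genes tested. Without control replicate 2, whose 404 FPKM was 52.9% of the mean of the other controls, the log2 fold change was -2.38 with an adjusted p of 0.0221 by limma, past both thresholds, as were 10.4% of all tested genes in that setting. With any one of the other libraries left out, the adjusted p by limma ranged from 0.0567 to 0.213. With a stricter filter of 1 FPKM it was 0.0496 at the same log2 fold change of -2.09. The difference was negative under each of the 14 alternatives run. Those that left out a library could not alter its sign, since each NaCl library was below each control library. The replicate block and the changes of filter left its size unchanged as well.

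*CsGRAS7* was the most even of the 4 genes in NaCl leaves and had the second highest level of the family in control leaves. It had 157, 163 and 158 FPKM in NaCl replicates 1, 2 and 3, against 172, 284 and 205 FPKM in control replicates 1, 2 and 3. The NaCl libraries lay close together and below all controls, with control replicate 1 nearest and control replicate 2 farthest from them. The mean was 160 ± 3.39 FPKM in NaCl leaves and 220 ± 57.8 FPKM in control leaves (SD, n = 3 each). The log2 fold change of -0.43 (standard error 0.22, 95% interval -0.95 to 0.08) did not pass the test, with an adjusted p of 0.220 by limma. The exact permutation test again gave p = 0.1 (two-sided).

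The coefficient of variation of *CsGRAS7* was 2.12% in NaCl leaves and 26.2% in control leaves. Over all tested genes, 59.0% had a smaller SD of log2(FPKM + 1) in NaCl than in control, with medians of 0.21 in NaCl and 0.27 in control. *CsGRAS7*, *CsGRAS9* and *CsGRAS13* were 3 such genes and *CsGRAS16* was not. Control replicate 2 was, for *CsGRAS7*, at 151% of the mean of the other controls, which is away from the NaCl level. Without it the log2 fold change was -0.23, the value nearest to 0 among the alternatives, and without control replicate 1 it was -0.60.

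*CsGRAS13* had an intermediate level and showed no detectable difference at this precision. It had 57.0, 57.9 and 66.7 FPKM in NaCl replicates 1, 2 and 3, against 71.5, 51.4 and 71.2 FPKM in control replicates 1, 2 and 3. Control replicate 2 lay below all NaCl libraries and the other controls above them, so the groups overlapped. The mean was 60.6 ± 5.35 FPKM in NaCl leaves and 64.7 ± 11.5 FPKM in control leaves (SD, n = 3 each). This gave a log2 fold change of -0.08 (standard error 0.17), with an adjusted p of 0.769 by limma. Its 95% interval of -0.50 to 0.34 was the narrowest of the 4 genes and leaves out a change of 1 on the log2 scale in either direction. Without control replicate 2 the log2 fold change was -0.24.

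*CsGRAS9*, the gene with the light terms, had the lowest level of the 4 and the only positive log2 fold change. It had 9.11, 7.40 and 8.20 FPKM in NaCl replicates 1, 2 and 3, against 4.56, 11.4 and 4.98 FPKM in control replicates 1, 2 and 3. Control replicate 2 was the highest of the 6 libraries, while the other controls were the lowest. The mean was 8.24 ± 0.855 FPKM in NaCl leaves and 6.99 ± 3.85 FPKM in control leaves (SD, n = 3 each). The log2 fold change was 0.31 (standard error 0.32, 95% interval -0.46 to 1.07), with an adjusted p of 0.533 by limma. These values rested on 212 to 258 reads in NaCl and 115 to 274 reads in control, with a counting error of at most 9.33% in any library, which is less than the spread between the controls.

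For *CsGRAS9* the result depended most on control replicate 2, which was at 239% of the mean of the other controls. Without it the log2 fold change was 0.68 with an adjusted p of 0.0354 by limma, past the threshold on p and short of that on fold. Without control replicate 2, 24.4% of all tested genes passed the adjusted p. Over the 6 ways of leaving out 1 library the log2 fold change of *CsGRAS9* ranged from 0.10 to 0.68.

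**Figure D2:**
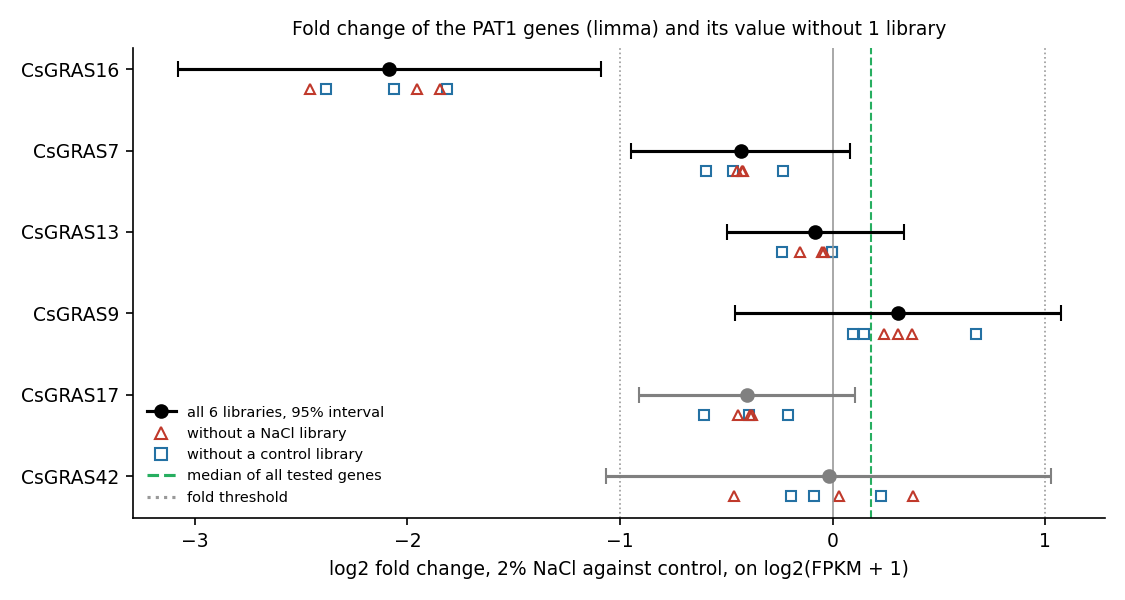
Log2 fold change of NaCl against control leaves on log2(FPKM + 1) for the 6 PAT1 genes, with the 95% interval of limma (circles and bars, black for the 4 genes described and grey for *CsGRAS17* and *CsGRAS42*) and the value without each NaCl library (triangles) or control library (squares). *CsGRAS16* stays between -2.46 and -1.81 when any 1 library is left out, apart from the fold threshold of 1 (dotted), and the intervals of the other 5 genes include 0.

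The 2 other PAT1 genes lay between *CsGRAS9* and *CsGRAS7* in level in every library. *CsGRAS17* (Cs_ont_4g020090) had 62.5, 67.6 and 61.5 FPKM in NaCl replicates 1, 2 and 3, against 85.7, 63.8 and 111 FPKM in control replicates 1, 2 and 3. Its groups overlapped through control replicate 2, and it differed by -0.40 on the log2 scale (standard error 0.21, adjusted p = 0.242 by limma). Without that library it differed by -0.61 with an adjusted p of 0.0435 by limma, short of the threshold on fold. In that setting 24.4% of all tested genes passed the adjusted p. *CsGRAS42* (Cs_ont_9g026300) had 9.35, 32.3 and 15.7 FPKM in NaCl replicates 1, 2 and 3, against 13.2, 24.6 and 15.5 FPKM in control replicates 1, 2 and 3. Here each group held 1 library well above its others, and NaCl differed from control by -0.02 on the log2 scale (standard error 0.44, adjusted p = 0.980 by limma).

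Of the 6 PAT1 genes 5 had a negative log2 fold change, where 35.3% of all tested genes did, and their median was -0.24, against 0.18 over all tested genes. The groups did not overlap for 2 of the 6, *CsGRAS7* and *CsGRAS16*, where 36.1% of all tested genes had groups that did not overlap. Relative to the median gene the values were -2.27 for *CsGRAS16*, -0.61 for *CsGRAS7*, -0.58 for *CsGRAS17*, -0.26 for *CsGRAS13*, -0.20 for *CsGRAS42* and 0.13 for *CsGRAS9*. In the whole family 32 of 43 genes were high enough to test, 0 were called by limma with or without voom weights, and 10 of the 32 passed an unadjusted p of 0.05, where 30.3% of all tested genes did, 4 of them with the fold, where 8.64% did. The sign of the log2 fold change was positive for 13 and negative for 19 of the 32, with a median of -0.09.

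**Figure D3:**
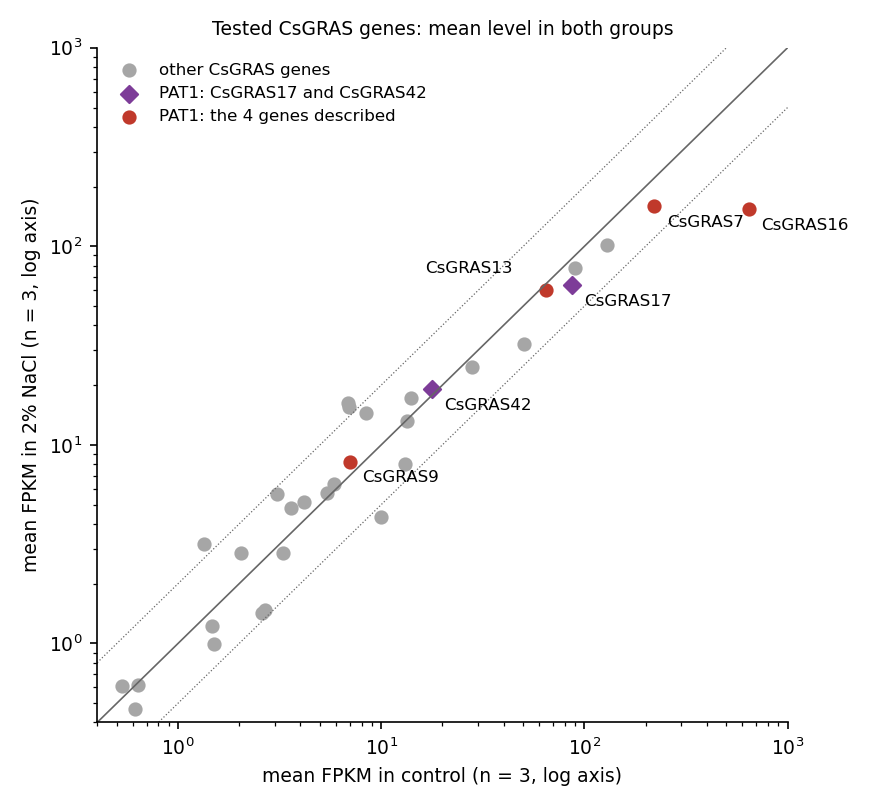
Mean FPKM in NaCl leaves (vertical) against mean FPKM in control leaves (horizontal), both on log axes, for the 32 tested *CsGRAS* genes, with n = 3 libraries in each group. The solid line marks equal levels and the dotted lines a difference of 1 on the log2 scale. *CsGRAS16*, at 154 FPKM in NaCl and 644 FPKM in control, lies farthest to the right and below the lower dotted line, while *CsGRAS7*, *CsGRAS13* and *CsGRAS9* lie between the dotted lines.

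The order of the levels was compared within libraries, where a ratio of 2 genes does not depend on the scaling between libraries. The 6 pairs among the 4 genes were tested, with exact permutation tests (two-sided) and Benjamini-Hochberg adjustment over the 6. The ratio of *CsGRAS16* to *CsGRAS7* was 1.53, 0.628 and 0.755 in NaCl replicates 1, 2 and 3, against 3.69, 1.42 and 4.36 in control replicates 1, 2 and 3. *CsGRAS7* was thus the more abundant of the pair in 2 of 3 NaCl libraries and in 0 of 3 control libraries, but the groups overlapped, since control replicate 2 lay below NaCl replicate 1. The log2 ratio averaged -0.15 ± 0.68 in NaCl and 1.51 ± 0.87 in control (SD, n = 3 each), a difference of -1.66 with an exact p of 0.2 and an adjusted p of 0.3.

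Against *CsGRAS13*, the ratio of *CsGRAS16* was 4.22, 1.77 and 1.79 in NaCl replicates 1, 2 and 3, and 8.86, 7.87 and 12.6 in control replicates 1, 2 and 3. Here the groups did not overlap, and control replicate 2 lay with the other controls. The log2 ratio averaged 1.25 ± 0.72 in NaCl and 3.26 ± 0.35 in control (SD, n = 3 each), a difference of -2.01 with an exact p of 0.1 and an adjusted p of 0.2. The log2 ratios of *CsGRAS16* to *CsGRAS9* and of *CsGRAS7* to *CsGRAS9* were also apart, lower in NaCl by differences of -2.46 and -0.80, each with an exact p of 0.1 and an adjusted p of 0.2. *CsGRAS9* was the lower gene of both pairs in every library. The log2 ratios of *CsGRAS7* to *CsGRAS13* and of *CsGRAS13* to *CsGRAS9* overlapped between the groups, with differences of -0.35 and -0.45 and an exact p of 0.4 for each. No pair could pass the adjustment with 3 libraries in each group, so a p above the threshold does not show that the ratios were alike. In all 6 libraries *CsGRAS13* lay below *CsGRAS7* and *CsGRAS16* and above *CsGRAS9*.

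Summed over the 6 PAT1 genes, FPKM was 536, 431 and 429 in NaCl replicates 1, 2 and 3, against 981, 840 and 1303 in control replicates 1, 2 and 3. *CsGRAS16* made up 44.9%, 23.8% and 27.8% of this sum in the NaCl libraries, against 64.6%, 48.1% and 68.7% in the control libraries. Its share averaged 32.2 ± 11.2% in NaCl and 60.5 ± 10.9% in control (SD, n = 3 each), a difference of -28.3 percentage points (exact permutation test, two-sided p = 0.1). Since the shares add up to 100%, a lower share of *CsGRAS16* goes with higher shares of the others. *CsGRAS7* averaged 34.7 ± 4.65% in NaCl and 22.4 ± 9.98% in control (SD, n = 3 each), and *CsGRAS13* averaged 13.2 ± 2.46% in NaCl and 6.29 ± 0.927% in control (SD, n = 3 each).

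Most of the difference in the sum lay in 1 gene: the means of the sum differed by -576 FPKM, and by -85.4 FPKM without *CsGRAS16*. The 5 PAT1 genes other than *CsGRAS16* summed to 295, 329 and 310 FPKM in NaCl replicates 1, 2 and 3, against 347, 435 and 408 FPKM in control replicates 1, 2 and 3. These sums did not overlap either, with means of 311 ± 16.7 FPKM in NaCl and 397 ± 45.5 FPKM in control (SD, n = 3 each, exact permutation test p = 0.1). The most abundant of these 5 was *CsGRAS7*, with means of 160 FPKM in NaCl and 220 FPKM in control. Taken singly, *CsGRAS7* had groups that did not overlap, while those of *CsGRAS9*, *CsGRAS13*, *CsGRAS17* and *CsGRAS42* overlapped. The sum over all 43 *CsGRAS* genes averaged 834 ± 59.1 FPKM in NaCl and 1452 ± 221 FPKM in control, and *CsGRAS16* alone was 18.1 ± 7.49% of it in NaCl and 43.4 ± 10.5% in control (SD, n = 3 each).

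**Figure D4:**
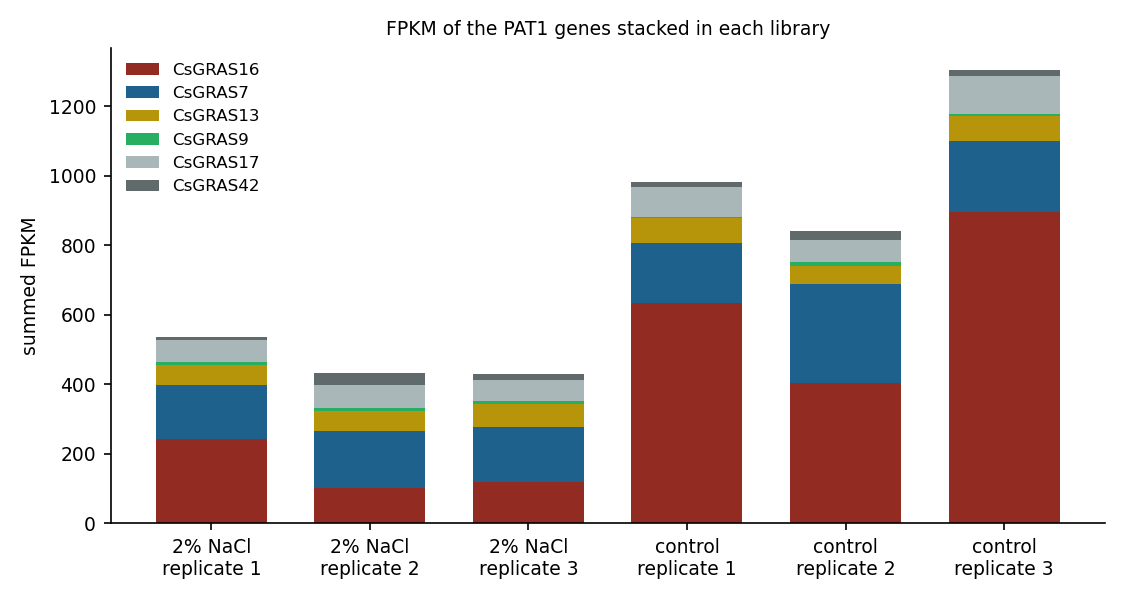
FPKM of the 6 PAT1 genes stacked in each library, the 3 NaCl libraries on the left and the 3 control libraries on the right, with FPKM from 0 on the vertical axis and 1 colour for each gene. The totals are 429 to 536 FPKM in NaCl and 840 to 1303 FPKM in control, and the segment of *CsGRAS16* at the base differs most between the groups.

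The genes whose pattern over the 6 libraries was most like each of the 4 were ranked by the root mean square difference of log2(FPKM + 1), each gene centred on its own mean, among 11734 genes with a mean of at least 5 FPKM. These are descriptions over 6 libraries that share depth and treatment. For *CsGRAS16* the nearest gene outside the family was Cs_ont_7g004510, which carries no GO or KEGG entry in the table, at 0.13 against a median of 1.29 over all candidates. That gene averaged 1.78 ± 0.954 FPKM in NaCl and 11.5 ± 5.50 FPKM in control (SD, n = 3 each), with a log2 fold change of -2.12 and an adjusted p of 0.0470 by limma. The log2(FPKM + 1) scale understates the change of so low a gene, and its mean reached 5 FPKM through its controls. Its likeness to *CsGRAS16* therefore holds on that scale only. Inside the family the nearest to *CsGRAS16* were *CsGRAS38* and *CsGRAS36* of the LISCL subfamily, at 0.68 and 0.85, with 545 and 1101 genes closer.

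For *CsGRAS7* the nearest family members were *CsGRAS12* of the SCL3 subfamily at 0.18 and *CsGRAS36* at 0.28, and the nearest outside gene, annotated with RNA binding and endonuclease activity, was at 0.06 against a median of 0.46. For *CsGRAS9* they were *CsGRAS32* of LISCL at 0.15 and *CsGRAS25* of HAM at 0.20. The gene outside the family nearest to *CsGRAS9* was Cs_ont_8g000680, annotated as a peptidyl-prolyl cis-trans isomerase, at 0.04 against a median of 0.42. It shared the high control replicate 2 of *CsGRAS9* and averaged 142 ± 13.4 FPKM in NaCl and 125 ± 62.2 FPKM in control (SD, n = 3 each). For *CsGRAS13* the nearest were *CsGRAS37* and *CsGRAS39* of LISCL at 0.19 and 0.22, with 669 and 1277 genes closer. No PAT1 gene was among the 2 nearest family members of any of the 4.

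The processes for which PAT1 relatives are known elsewhere were described through lists of genes with GO terms for them, in which *CsGRAS9* is a member of the light list. Of 126 tested genes with red or far-red light terms, 4 rose and 5 fell in NaCl leaves at an adjusted p of at most 0.05 by limma, where 3.23% of all tested genes passed, and their median log2 fold change of 0.20 was near the 0.18 of all genes. Of 109 tested genes with terms for response to chitin, 0 rose and 9 fell, with a median of -0.26, and 0 rose with voom. At an unadjusted p of 0.05, 8 of the 109 were higher and 38 lower in NaCl, where 19.1% of all tested genes were higher and 11.2% lower. Chitin is a fungal cell wall polymer that plants perceive as a sign of attack. Of 95 tested genes with gibberellin terms, 1 rose and 2 fell, with a median of 0.17. Without control replicate 2 the counts that rose and fell were 17 and 8 for light, 12 and 38 for chitin and 19 and 4 for gibberellin, where 24.4% of all tested genes passed the adjusted p. With any one of the other libraries left out, 0 to 3 genes rose and 0 to 2 fell in each list.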

How the data were processed

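RNA-seq of sweet orange leaves was analysed in 3 NaCl and 3 control libraries, grouped by the GEO labels. The authors deposited FPKM per gene and library. HISAT2 and HTSeq are named in the submitters' processing notes, and the study's methods name Trim Galore, HISAT2 and featureCounts, so the counting tool is unclear. The study's methods give an alignment setting for stranded libraries (RF). Whether counting used strand, and how reads that match several genes were treated, are not given in the sources used here, and closely related copies could share reads. Deposited group means, log2 fold changes, p-values and calls of the authors' own comparison were not used. The table holds 0 columns of per-sample values that were left out.

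FPKM is not a count, so log2(FPKM + 1) was fitted with limma 3.58.1 (R 4.3.3), with a mean-variance trend and treatment as the only term. The fit held the 17285 of 29875 genes that reached 0.5 FPKM in 3 or more libraries, all 4 described genes among them, and Benjamini-Hochberg adjustment ran over these. A fold change on this scale understates the change of low genes. Single values were compared by exact permutation tests over libraries, which with 3 against 3 cannot go below 0.1. The study describes biological replicates. The p-values of limma set the difference between the groups against the spread between the libraries within them.

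The FPKM values that the authors deposited were turned back into whole reads for 100% of 23073 genes above 0, within a relative tolerance of 1e-09, and limma with voom weights was run on them as an alternative, in place of a count model. Reads are not independent molecules, so counting errors cover sampling only. Python 3.11.15 with pandas 2.3.3 read the tables. The fit and the recovery were tested on simulated data. GO lists were matched by term identifier, and the process term names of 3183 genes were not used here. Coordinates and sequences of these identifiers were not used here.

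The genes named are the 4 described, the other PAT1 genes and, for each of the 4, the 2 family members and the 1 outside gene nearest in pattern. Genes, lists and rules were chosen with earlier results of these data known. Alternatives were each library left out, a block for the replicate number, a filter of 1 FPKM or none, quantile and upper-quartile normalization, pseudocounts of 0.1 and 0.01, and voom. The counts of the GO lists without control replicate 2 were added after seeing the data.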

Additional observations from a re-analysis of the deposited data

How the results depend on the processing

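The 4 described genes kept the sign of their log2 fold change in all 14 alternatives, and *CsGRAS7*, *CsGRAS9* and *CsGRAS13* were called in 0 of them. *CsGRAS16* was called in 2: with a filter of 1 FPKM (-2.09, adjusted p = 0.0496), where fewer genes are tested, and without control replicate 2 (-2.38, adjusted p = 0.0221). The replicate block and the changes of filter leave the fold change as it is, so they could not alter a sign. For *CsGRAS16* and *CsGRAS7* leaving out 1 library could not either, since every NaCl library was below every control library. *CsGRAS13* came to -0.002 and -0.005 without control replicates 1 and 3, so its kept sign says little. Leaving out 1 library gave log2 fold changes of -2.46 to -1.81 for *CsGRAS16*, -0.60 to -0.23 for *CsGRAS7*, 0.10 to 0.68 for *CsGRAS9*, -0.24 to -0.00 for *CsGRAS13* and -0.47 to 0.38 for *CsGRAS42*, which turned positive without control replicate 2 (0.23), NaCl replicate 1 (0.38) or NaCl replicate 3 (0.03). The adjusted p of *CsGRAS16* by limma was 0.0747 with no filter, 0.0522 with quantile normalization, 0.0529 with upper-quartile scaling, 0.0531 and 0.0567 with pseudocounts of 0.1 and 0.01, and 0.0522 with voom. The difference in the log2 ratio of *CsGRAS16* to *CsGRAS7* was -2.16 to -1.35 with 1 library left out, and the difference in the share of *CsGRAS16* in the PAT1 sum -34.7 to -24.1 percentage points.

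The count of genes called, 472, was 40 with no filter and 308 with a pseudocount of 0.01, and 0 to 1800 with 1 library left out: 2, 1800 and 0 without control replicates 1, 2 and 3, and 100, 120 and 5 without NaCl replicates 1, 2 and 3. Where 0 were called, 3084 genes passed an unadjusted p of 0.05 by limma, and the cause was not tested. Same-numbered libraries did not deviate together (r = -0.03, 0.03 and -0.07). The labels do not say whether the numbers pair them, and with 3 libraries in each group these values cannot settle it. With the replicate block 7 genes were called, and the adjusted p by limma was 0.0809 for *CsGRAS16*, 0.267 for *CsGRAS7*, 0.570 for *CsGRAS9* and 0.780 for *CsGRAS13*. With 3 libraries in each group and 1 that stands apart, the adjusted p of *CsGRAS16* lies on both sides of the threshold. Gene lists without control replicate 2 are given beside their counts.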

Other observations

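The levels of *CsGRAS16* ran in the reverse order of the libraries on the first principal component, with NaCl replicate 2 lowest and control replicate 3 highest. That component was computed from all tested genes, *CsGRAS16* included, and 557 genes (3.22%) were ordered along it in one direction or the other. The part of the whole-library difference in the levels of *CsGRAS16* was not tested.

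As shares of the library totals implied by the FPKM values, *CsGRAS16* took 0.0668%, 0.0285% and 0.0330% in NaCl replicates 1, 2 and 3, against 0.176%, 0.112% and 0.248% in control replicates 1, 2 and 3. The FPKM values of the 4 genes imply lengths of 2772 bp for *CsGRAS16*, 3283 bp for *CsGRAS7*, 2449 bp for *CsGRAS13* and 1611 bp for *CsGRAS9*, so that the lowest of the 4 per length was also the shortest.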
